A study of Mus musculus with 5 samples.

Results

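The genes described here are those of fibronectin (Fn1), of the small leucine-rich proteoglycans decorin (Dcn), biglycan (Bgn) and lumican (Lum), of the matricellular proteins periostin (Postn), Sparc, tenascin C (Tnc), thrombospondin 1 (Thbs1) and osteopontin (Spp1), and of matrilin 2 (Matn2), an adaptor that links filaments of the matrix. They were chosen by name, by matching gene symbols, with earlier results of these data known. They are 10 genes of 15154 in the deposited table and 38 isoforms of 50356. The expression of a gene was taken as the sum of its isoforms. Matrix glycoproteins are secreted proteins that sit between collagen fibrils, growth factors and the receptors on cell surfaces. Fibroblasts are a main source of them in peripheral nerve and ganglion, and glia, macrophages and some neurons make several of them as well. Some build the matrix itself, such as fibronectin and the small leucine-rich proteoglycans that bind collagen. Others, called matricellular proteins, add little to its structure and instead change how cells attach to it, and are known from developing and injured nerve.

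The libraries were made from polyadenylated RNA of dorsal root ganglion (DRG) neuron cultures (n = 3) and of cerebellar granule neuron (CGN) cultures (n = 2), all from C57bl/6j mice of postnatal day 8. DRG cultures, each from the combined ganglia of a pair of mice, were kept for 16 days in medium with nerve growth factor and the antimitotic agent 5′-fluoro-2′-deoxyuridine. CGN cultures, each from a single mouse, were kept for 16 hours. All dishes carried the same coating of poly-d-lysine at 100 µg/mL and laminin at 5 µg/mL. No transgene, mutation or further treatment is given for either group, and by the study's account the DRG cultures were not wholly neuronal. Cell type, time in culture, medium and number of mice differed together between DRG and CGN libraries and cannot be told apart. Because the RNA is that of whole cultures, more cells of a type and more RNA per cell cannot be told apart either.

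Expression was given as FPKM (fragments per kilobase of exon, scaled between libraries by the authors' upper-quartile normalization), a measure per length of transcript that allows levels of different genes to be set side by side. The FPKM of all isoforms summed to between 51860685 and 62824363 in DRG libraries, against 22444463 and 37275184 in CGN libraries. Such totals are far above those of FPKM scaled to the mapped reads alone, so a value is read only relative to others in these libraries. The files used here give no read counts per gene. The number of reads behind an FPKM is therefore unknown, and a value listed at 0 is not taken as absence. Differences are log2 fold changes of FPKM + 50, DRG over CGN, which understate the change of genes with low values, and were tested with limma with adjustment over all 13275 genes or 33587 isoforms tested. Among all genes tested the median log2 fold change was 0.59, and 3775 were called higher and 1224 lower in DRG cultures at an adjusted p under 0.05. That split rested on the authors' normalization: 2974 were called higher and 2809 lower after quantile normalization, 2842 and 2807 after median ratio scaling, and 2287 and 3502 after scaling to equal total FPKM, with median log2 fold changes of 0.02, -0.04 and -0.27.

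For 5 of the 10 genes the RefSeq promoter table (GRCm38.p6) held 8 start sites, and the part just before the start, bases -40 to -11, is shown for 1 start of each gene to let the genes that differed most and least be compared at the place where a TATA box would lie. For Postn, Tnc and Spp1, which have more than 1 start in the table, the start with a match was taken, or the first listed where none had one. Capitals mark matches to TATANA on either strand, overlapping matches merged. On the genome these windows are chr3:54361067-54361096 (plus strand) for Postn, chr4:64046947-64046976 (minus strand) for Tnc, chr5:104435071-104435100 (plus strand) for Spp1, chr11:55420091-55420120 (minus strand) for Sparc and chrX:73483561-73483590 (plus strand) for Bgn. The genes without an entry were Fn1, Dcn, Lum, Thbs1 and Matn2.
Postn: acagcccagagcTATATAAActcagctctc
Tnc: aaggagctcccTATATAagcctgccaaagc
Spp1: ggagactgtctggaccagcatttaaattct
Sparc: ctcatgtctgtttaggcaggagccccagaa
Bgn: ccctctccgccccgtcccctccctgtcggc
Matches in this window were found at 1 start of Postn and 1 start of Tnc, and 4.23% of the 32851 promoters in the table hold one there. As described below, Postn was among the genes that differed most between the cultures and Tnc did not pass the test. Which of these starts were used in the cultures is not known, and the part of the motif in these levels was not tested.

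Of the 10 genes, 8 were higher in DRG cultures, and 0 were lower. Fn1, Dcn, Bgn, Lum, Postn, Sparc, Spp1 and Matn2 passed the test, while Tnc and Thbs1 did not. Of all genes tested, 28.4% were called higher and 9.22% lower in DRG cultures. In the same 8 genes every DRG library lay above every CGN library, which held for 43.5% of all genes tested. The log2 fold changes of the 10 genes had a median of 4.37. Together the 10 genes took 0.796%, 0.594% and 0.702% of the summed FPKM of DRG libraries 1, 2 and 3, against 0.0828% and 0.114% in CGN libraries 1 and 2. Under quantile normalization, median ratio scaling and scaling to equal total FPKM the same count of 8 was called.

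**Figure D1:**
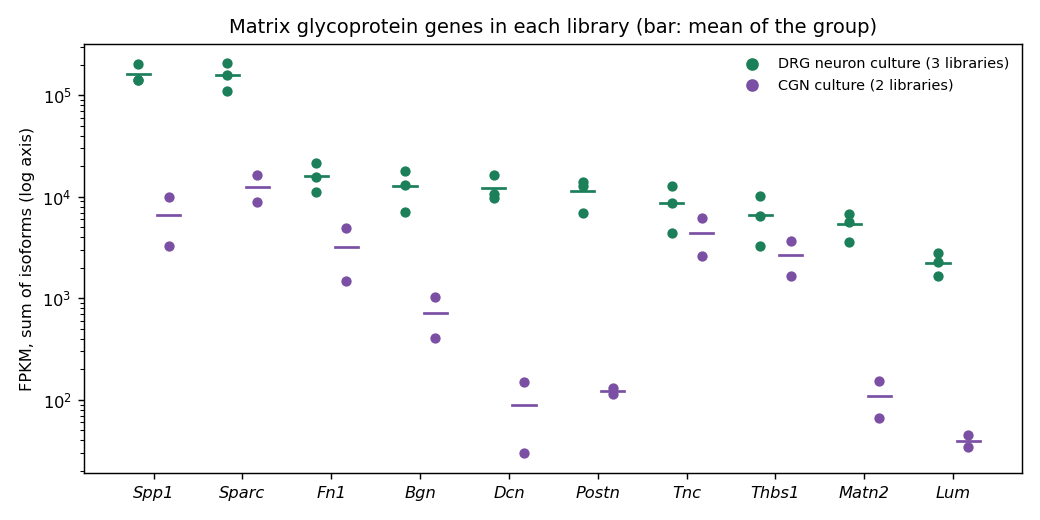
FPKM of each gene (sum of its isoforms, log axis) in every library, with genes ordered by their mean in DRG cultures. Points are libraries (3 DRG, left of each pair, and 2 CGN, right), and short bars are group means. Tnc and Thbs1 are the genes whose DRG and CGN points overlap.

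Spp1 and Sparc stood above the other genes in DRG cultures. Osteopontin, the product of Spp1, is a secreted phosphoprotein that binds integrins and CD44 and is known from macrophages, bone and a subset of sensory neurons. Spp1 (mm9 chr5:104864137-104870069, plus strand) had 202002, 141368 and 142648 FPKM in DRG cultures, against 3294 and 10035 FPKM in CGN cultures. It was the gene of rank 16 to 24 among all genes in the DRG libraries, and of rank 1614 and 650 in the CGN libraries. The groups were far apart, with a log2 fold change of 4.78 (SE 0.53, limma adjusted p = 0.00023).

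Sparc encodes a calcium- and collagen-binding matricellular protein that is also made by glia. Sparc (chr11:55208002-55233582, minus strand) had 205485, 110384 and 157870 FPKM in DRG cultures, against 8857 and 16264 FPKM in CGN cultures. All DRG libraries were above both CGN libraries, and the log2 fold change was 3.67 (SE 0.50, adjusted p = 0.00062). In CGN cultures Sparc had the highest mean of the 10 genes, at 12561 ± 5238 FPKM (SD, n = 2), and it ranked 364 and 305 among all genes there, so a gene called higher in DRG cultures was still abundant in CGN cultures. The DRG ranges of Spp1 and Sparc overlapped, and Spp1 was above Sparc in 1 of 3 DRG libraries, so their order was not settled by these libraries.

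Fibronectin, a large dimeric glycoprotein that cells assemble into fibrils through integrins, is the scaffold on which much of the provisional matrix forms. Fn1 (chr1:71632094-71699774, minus strand) had 21755, 11146 and 15591 FPKM in DRG cultures, against 1476 and 4964 FPKM in CGN cultures. The log2 fold change was 2.50 (SE 0.51, adjusted p = 0.0049), the smallest among the 8 genes called. As a ratio, the CGN libraries differed from each other by more than the DRG libraries did.

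Decorin, biglycan and lumican are small leucine-rich proteoglycans, which coat collagen fibrils and bind growth factors. Dcn (chr10:96942245-96980777, plus strand) had 16441, 9718 and 10691 FPKM in DRG cultures, against 29.7 and 149 FPKM in CGN cultures. With a log2 fold change of 6.58 (SE 0.48, adjusted p = 3.2e-05) it differed most among the 10 genes. Bgn (chrX:70728941-70741272, plus strand) had 17981, 7030 and 13191 FPKM in DRG cultures, against 404 and 1021 FPKM in CGN cultures (log2 fold change 4.10, SE 0.49, adjusted p = 0.00033). Biglycan, which also signals through innate immune receptors once released from the matrix, thus kept a higher level in CGN cultures than decorin, with no overlap of their CGN ranges, whereas their DRG ranges overlapped. Lum (chr10:97028135-97035337, plus strand) had 2283, 1657 and 2777 FPKM in DRG cultures, against 34.0 and 45.3 FPKM in CGN cultures (log2 fold change 4.65, SE 0.52, adjusted p = 0.00024). Lumican was the lowest of the 10 genes in every DRG library, with no overlap with the gene above it, Matn2. Dcn and Lum lie on the same strand of chromosome 10, 47357 bases apart in the annotation. Kera and Epyc, which belong to the same gene cluster, have no isoforms among those listed, so there were no values to describe.

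Periostin binds integrins and collagen and takes part in assembling the matrix of periosteum, heart valves and wounds. Postn (chr3:54165031-54194961, plus strand) had 14127, 6891 and 12843 FPKM in DRG cultures, against 130 and 114 FPKM in CGN cultures. The log2 fold change was 5.98 (SE 0.42, adjusted p = 2.8e-05), second in size to that of Dcn. It was the only gene of the 10 that was not higher in CGN library 2 than in CGN library 1.

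Matrilin 2 carries von Willebrand factor A domains and bridges collagen, fibronectin and other filaments, and in mouse it is known from the matrix around Schwann cells. Matn2 (chr15:34236436-34366029, plus strand) had 5655, 3625 and 6757 FPKM in DRG cultures, against 66.5 and 152 FPKM in CGN cultures. The log2 fold change was 5.09 (SE 0.47, adjusted p = 9.2e-05). In DRG cultures it ranked 2349, 3213 and 1717 among all genes, against 11397 and 10880 in CGN cultures, so it moved over a wide part of the expression range.

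Tenascin C and thrombospondin 1 are the matricellular proteins best known from the developing central nervous system, where astrocytes and Bergmann glia make them. Tnc (chr4:63620819-63681760, minus strand) had 4386, 12822 and 8666 FPKM in DRG cultures, against 2632 and 6181 FPKM in CGN cultures. DRG library 1 lay between the CGN libraries, and the log2 fold change of 0.95 (SE 0.51) did not pass, with an adjusted p of 0.17. Without DRG library 1 it passed (1.37, limma adjusted p = 0.032), and with equal total FPKM it was near 0 (0.01, adjusted p = 0.99). Thbs1 (chr2:117937612-117952869, plus strand) had 10156, 3243 and 6459 FPKM in DRG cultures, against 1667 and 3663 FPKM in CGN cultures. Here DRG library 2 lay between the CGN libraries, and the log2 fold change of 1.26 (SE 0.52) did not pass either, with an adjusted p of 0.082. Without DRG library 2 it passed (1.69, limma adjusted p = 0.015), and with equal total FPKM it was 0.32 (adjusted p = 0.57). Thus for each of these genes the call changed when 1 DRG library was left out. For Thbs1 it also changed when reference isoforms alone were summed, as given below. A list of 7 astrocyte and Bergmann glia markers summed to between 1208 and 1499 FPKM in DRG cultures, against 16999 and 24553 FPKM in CGN cultures. Of these markers 1 was higher in DRG cultures (Aldh1l1), 5 were lower and 1 did not pass. The count of markers higher was 0 with equal total FPKM, with median ratio scaling, without DRG library 2 and without either CGN library. Aqp4, the water channel of astrocyte endfeet, was listed at 0 in all DRG libraries. The part of astrocytes in the levels of Tnc and Thbs1 was not tested.

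**Figure D2:**
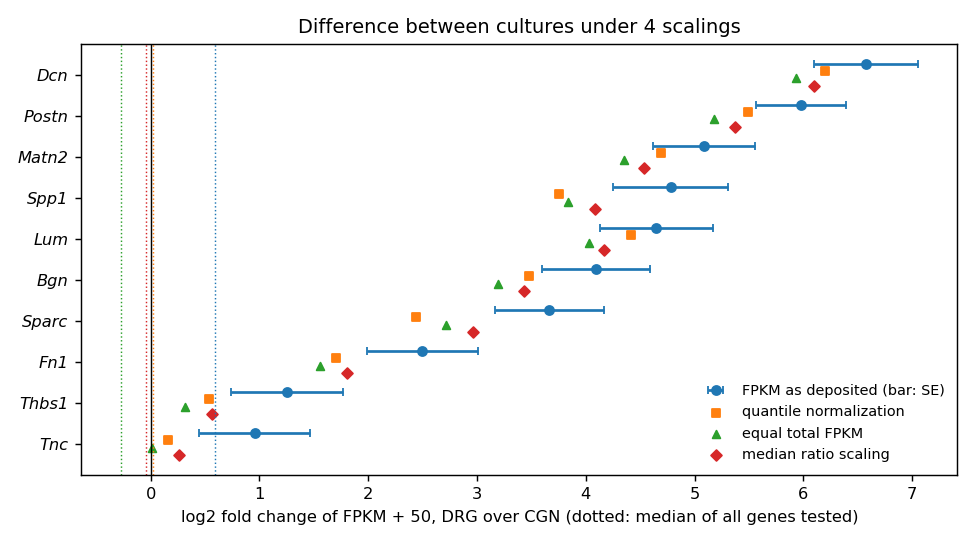
Log2 fold change of FPKM + 50 for each gene, DRG over CGN, with the FPKM as deposited (circles, bars show the SE) and under 3 other scalings (squares, triangles and diamonds). Dotted lines give the median of all genes tested under each scaling, from 0.59 as deposited to -0.27 with equal total FPKM. Every scaling placed the same 8 genes to the right of the dotted lines by more than 1 log2 unit, and Tnc and Thbs1 closest to them.

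The order of the 10 genes by mean level differed between the cultures. In DRG cultures Spp1 and Sparc were followed, after a gap, by Fn1, Bgn, Dcn, Postn, Tnc, Thbs1 and Matn2, in which each neighbour overlapped the next, and, after a gap, by Lum. In CGN cultures Sparc, Spp1, Tnc, Fn1 and Thbs1 overlapped from neighbour to neighbour. Overlap of ranges does not use that values come from the same library. Within each CGN library Sparc was above Spp1, Spp1 above Tnc and Tnc above Fn1, while Fn1 was above Thbs1 in only 1. Within each DRG library Fn1 was above Bgn. Bgn stood below these and above Postn without overlap, and Postn, Matn2, Dcn and Lum overlapped from neighbour to neighbour at the bottom. Dcn, Postn, Matn2 and Lum spanned 29.7 to 152 FPKM in CGN cultures and 1657 to 16441 FPKM in DRG cultures. Lum did not overlap Postn or Matn2 in CGN cultures, so these genes were linked there only from neighbour to neighbour.

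Among the DRG libraries, library 2 had the lowest value for 9 of the 10 genes, and in Tnc it had the highest value and DRG library 1 the lowest. Over 12697 genes tested with values above 0 in all DRG libraries, DRG library 2 was lowest for 36.1%. Thbs1 deviated most, with 0.76, -0.87 and 0.11 log2 units from its DRG mean in libraries 1, 2 and 3. The fibroblast markers were lowest in the same library: 10 of 11 were, the exception being Pdgfra, a growth factor receptor that marks many fibroblasts, with 1321, 147 and 34.1 FPKM in DRG cultures, against 344 and 1399 FPKM in CGN cultures. The sums of several other marker lists, given below, were lowest in DRG library 2 too. Without DRG library 2 the genes called higher numbered 9, Thbs1 being the addition.

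**Figure D3:**
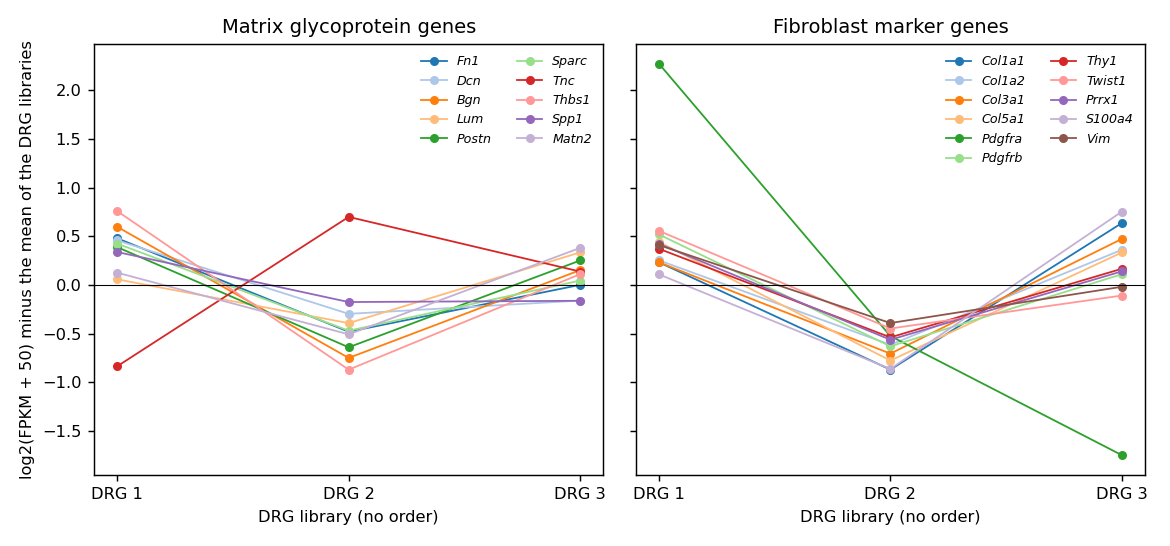
Deviation of each DRG library from the mean of the 3 DRG libraries, in log2(FPKM + 50), for the 10 matrix glycoprotein genes (left) and for 11 fibroblast markers (right). Lines join the values of 1 gene and do not stand for an order of the libraries. DRG library 2 is lowest for 9 genes on the left and 10 on the right, and Tnc and Pdgfra run otherwise.

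Between the CGN libraries 9 of the 10 genes were higher in library 2. Its values were a median of 2.32 times those of library 1, with a range of 0.878 for Postn to 5.00 for Dcn, against a median of 1.67 over 12819 genes. The summed FPKM of CGN library 2 was 1.66 times that of library 1.

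Markers of other cells in the cultures were set beside these values. The fibroblast list of 11 genes summed to between 146897 and 271582 FPKM in DRG cultures, against 20252 and 43026 FPKM in CGN cultures. Of the 11, 9 were higher in DRG cultures. This became 8 with equal total FPKM, with median ratio scaling and with the replicate block, and 10 without DRG library 2. The counts of all marker lists are to be read beside the 28.4% called higher and 9.22% called lower over all genes tested. Vim was the largest part of the sum in every library, with 138907, 79623 and 103138 FPKM in DRG cultures, against 16296 and 35983 FPKM in CGN cultures. In DRG cultures Thy1 came next, with 65853, 34987 and 57096 FPKM. Neither is among the markers taken as defining, so the sums are largely not those of defining markers. Of the markers taken as defining, Col1a1, Col1a2 and Col3a1 passed and Pdgfra did not, and none of these was at 0 in either culture. The sum of 5 mural cell markers was 38601, 6468 and 16564 FPKM in DRG cultures, against 2325 and 5313 FPKM in CGN cultures, with 2 of 5 called higher. Among the DRG libraries the sums of mural, endothelial, Schwann and satellite glia and granule neuron markers were lowest in library 2. Those of sensory neuron markers and of macrophage and microglia markers were highest there. That of astrocyte and Bergmann glia markers lay in between. Schwann and satellite glia markers, with 8 of 11 higher and 1 lower (Fabp7), summed to between 127097 and 161928 FPKM in DRG cultures, against 24627 and 34917 FPKM in CGN cultures. Of these markers 7 were higher under each of the other scalings, and 9 without DRG library 2. Macrophage and microglia markers summed to between 308 and 1312 FPKM in DRG cultures, against 5208 and 8625 FPKM in CGN cultures. All 5 of these that were tested were lower in DRG cultures, and Cx3cr1 was listed at 0 in every DRG library, against 376 and 474 FPKM in CGN cultures. Aif1, Itgam and Cd14 were also listed at 0 in every DRG library, but were at or close to 0 in CGN library 2 as well, Cd14 in both CGN libraries. Of 4 endothelial markers tested 0 were higher and 1 was lower, with sums of 1817 to 2320 FPKM in DRG cultures, against 1572 and 2623 FPKM in CGN cultures. With the other scalings 2 were lower, and without CGN library 2 the 2 endothelial markers still tested gave 1 higher and 0 lower, their median turning to 0.13, against -1.29 with all libraries. Sensory neuron markers (7 of 7 higher, 210915 to 329843 FPKM in DRG cultures, against 579 and 622 FPKM in CGN cultures) and granule neuron markers (8 of 8 lower, 529 to 1353 FPKM in DRG cultures, against 148670 and 233561 FPKM in CGN cultures) went with the labels. Where either CGN library was left out fewer markers were tested: 3 astrocyte and Bergmann glia markers and 3 granule neuron markers were then called lower, and of macrophage and microglia markers 2 without CGN library 1 and 0 without CGN library 2. No mural marker (0) was called under quantile normalization, median ratio scaling or equal total FPKM. The part of any of these cell types in the levels of the matrix genes was not tested.

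The table gave 38 isoforms of the 10 genes, of which 17 carry reference identifiers and 21 were assembled by the authors from the reads (symbols ending in _j and a number). Isoform values are less certain than gene sums, because short reads shared by isoforms had to be divided among them. Of the 38, 35 reached 50 FPKM in at least 1 library and 32 were tested. Those called higher in DRG cultures numbered 16, those called lower 0 and those that did not pass 16. Among all isoforms tested 9.63% were called higher and 5.04% lower. Every DRG library lay above every CGN library in 22 of the 32, against 30.3% of all isoforms tested, and below in 1, against 16.9%. By origin, 10 of 15 reference isoforms and 6 of 17 assembled isoforms tested were called higher. Shares by origin over all isoforms are not given here, so this contrast is not read as particular to these genes. The 6 that were not tested are TCONS_00066945 and uc007bjv.1 of Fn1, uc008lrr.1 of Thbs1, TCONS_00547080 of Tnc and Postn_j2 and Postn_j5. The 16 calls fell to 8 without DRG library 1 and to 10 without DRG library 3, and shares over all isoforms without these libraries are not given here. Among the calls lost without DRG library 1 were Bgn_j1, uc007gwy.1 of Dcn, uc007izi.1 of Sparc, uc007vlo.1 of Matn2 and uc008lrq.1 of Thbs1, with adjusted p-values of 0.056 to 0.066.

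Matn2 had 2 isoforms, and the assembled one was the more abundant in DRG cultures. Matn2_j1 (TCONS_02096442) had 4011, 2578 and 4804 FPKM in DRG cultures, against 19.1 and 81.2 FPKM in CGN cultures (log2 fold change 5.29, SE 0.52, limma adjusted p = 0.0044). The reference isoform uc007vlo.1 had 1644, 1047 and 1953 FPKM in DRG cultures, against 47.3 and 71.2 FPKM in CGN cultures (3.83, SE 0.54, adjusted p = 0.011). Both isoforms thus passed and did not overlap between cultures. As a share of the gene, Matn2_j1 made up 70.9%, 71.1% and 71.1% in DRG cultures, against 28.8% and 53.3% in CGN cultures. The SD of this share over the DRG libraries was 0.107 percentage points (n = 3) although their Matn2 levels differed, whereas the SD of the CGN shares was 17.3 points (n = 2). For the difference of 30.0 percentage points the exact two-sided permutation p was 0.1, the smallest this test allows for 3 against 2 libraries. With a pseudocount of 50 added to each isoform the shares were 70.6%, 70.6% and 70.8% in DRG cultures, against 41.5% and 52.0% in CGN cultures. Without CGN library 1 the difference was 17.8 points and without CGN library 2 it was 42.3 points. For both isoforms the authors' lower confidence bound was above 0 in the DRG libraries alone, so the CGN shares rest on imprecise values.

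Dcn, Sparc and Spp1 were each given by a pair of reference isoforms, all called higher in DRG cultures. For Dcn, uc007gwx.1 had 12370, 7838 and 7605 FPKM in DRG cultures, against 27.8 FPKM and a value close to 0 in CGN cultures (log2 fold change 7.19, SE 0.44, limma adjusted p = 0.0019), and uc007gwy.1 had 4070, 1880 and 3087 FPKM, against 1.95 and 149 FPKM (4.85, SE 0.71, adjusted p = 0.013, and 0.052 with a pseudocount of 1). The share of uc007gwx.1 was 71.1% to 80.7% in DRG cultures, against 93.4% in CGN library 1 and about 0 in CGN library 2, so in CGN cultures the mix was not stable between libraries. For Sparc the larger isoform uc007izh.1 took 76.2% on average in DRG cultures, against 73.8% in CGN cultures. For Spp1 uc008ykj.1 took 83.8% on average in DRG cultures, against 83.7% in CGN cultures. For Sparc and Spp1 a difference of total level thus went with shares that were close in the averages. Bgn had a single isoform, the assembled Bgn_j1, and no reference isoform in the table. Of the isoforms of Lum, the reference uc007gwz.1 was called higher (4.78, SE 0.53, adjusted p = 0.0060) and Lum_j1, with 378, 120 and 178 FPKM in DRG cultures, against 23.6 and 5.65 FPKM in CGN cultures, did not pass (adjusted p = 0.13).

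**Figure D4:**
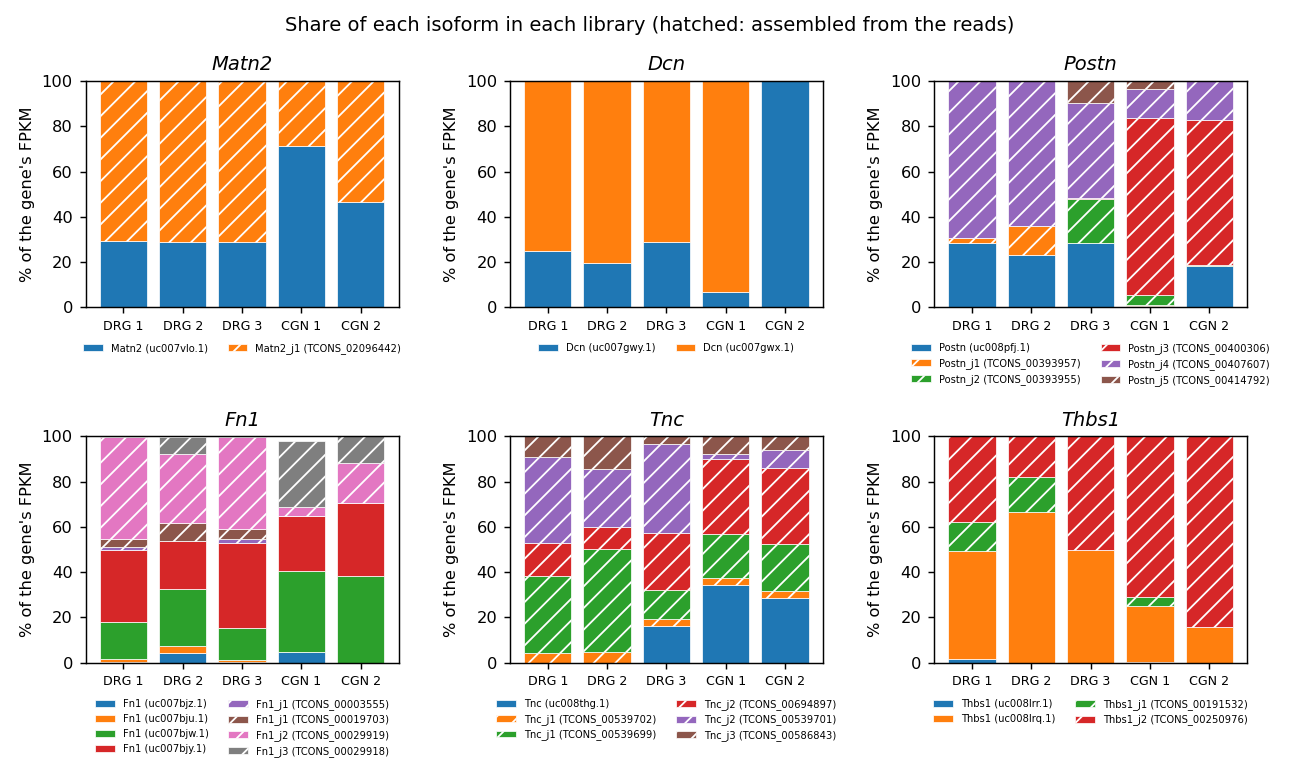
Share of each isoform in the FPKM of its gene, in percent, for 6 genes in each of the 3 DRG libraries (left) and 2 CGN libraries (right). Hatched parts are isoforms assembled by the authors, plain parts are reference isoforms, and isoforms that never reached 50 FPKM are left blank. Matn2_j1 takes 70.9% to 71.1% in DRG libraries, against 28.8% and 53.3% in CGN libraries, and for Matn2, Postn and Dcn the CGN bars rest on gene totals of 152 FPKM or lower.

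Periostin RNA is known to be spliced into several forms that differ near the end of the protein. Postn_j4 (TCONS_00407607) was the main isoform in DRG cultures, with 9800, 4410 and 5433 FPKM, against 16.3 and 19.3 FPKM in CGN cultures (log2 fold change 6.52, SE 0.49, limma adjusted p = 0.0025). The reference isoform uc008pfj.1 was higher as well, with 4005, 1596 and 3673 FPKM in DRG cultures, against 0.8 and 20.8 FPKM in CGN cultures (5.60, SE 0.60, adjusted p = 0.0053). The other assembled forms were uneven between DRG libraries. Postn_j2 had 2461 FPKM and Postn_j5 1230 FPKM in DRG library 3, and both were close to 0 in DRG libraries 1 and 2 and at 5.74 FPKM or lower in CGN cultures. Postn_j1 had 322 and 885 FPKM in DRG libraries 1 and 2 and was close to 0 in DRG library 3, against 0.62 and 0.01 FPKM in CGN cultures. Postn_j3 ran the other way: it was close to 0 in DRG libraries 1 and 2 and had 45.6 FPKM in DRG library 3, against 101 and 73.3 FPKM in CGN cultures, where it made up 78.2% and 64.4% of the gene. Its difference did not pass (-1.14, SE 0.50, adjusted p = 0.18).

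Fibronectin RNA is known for alternative splicing of whole type III repeats and of a variable region, by which cellular and plasma forms differ. Fn1 had 10 isoforms in the table, and the labels Fn1_j1 and Fn1_j2 each stood for 2 of them, so identifiers are used. The assembled TCONS_00029919 (Fn1_j2) was the most abundant in DRG cultures, with 9865, 3408 and 6332 FPKM, against 60.6 and 885 FPKM in CGN cultures (log2 fold change 4.23, SE 0.94, limma adjusted p = 0.035). This call was lost with a pseudocount of 1 (adjusted p = 0.063), without the filter (0.10), without the trend in limma (0.056) and without any 1 of the DRG libraries (0.062 to 0.091). It made up 45.3%, 30.6% and 40.6% of Fn1 in DRG cultures, against 4.11% and 17.8% in CGN cultures, where the reference isoform uc007bjw.1 took the largest share (36.1% and 38.2%). TCONS_00019703 (Fn1_j1) had 783, 866 and 688 FPKM in DRG cultures, against 0.47 FPKM and a value close to 0 in CGN cultures (4.04, SE 0.64, adjusted p = 0.016, and 0.060 without DRG library 1). The reference isoforms uc007bjw.1 and uc007bjy.1 lay higher in every DRG library than in any CGN library, with log2 fold changes of 1.42 (adjusted p = 0.16) and 2.51 (adjusted p = 0.071). The isoforms uc007bjz.1, uc007bju.1 and TCONS_00003555 (Fn1_j1), all at 489 FPKM or lower, did not pass either (1.37, 2.44 and 1.85, adjusted p = 0.38, 0.061 and 0.25). Of these, uc007bju.1 passed under 7 alternatives, among them pseudocounts of 1 and 10 and all 3 other scalings, with adjusted p-values of 0.025 to 0.049. Without CGN library 2, uc007bjw.1 and uc007bjy.1 passed (adjusted p = 0.014 and 0.0096). Fn1_j3 overlapped, with 27.8, 856 and 15.7 FPKM in DRG cultures, against 431 and 581 FPKM in CGN cultures.

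For Tnc and Thbs1 the isoforms of a gene differed in direction or in whether they passed. Tenascin C is also known for alternative splicing of its fibronectin type III repeats. TCONS_00539701 (Tnc_j2) had 1683, 3285 and 3406 FPKM in DRG cultures, against 59.6 and 470 FPKM in CGN cultures, and passed (log2 fold change 3.51, SE 0.75, limma adjusted p = 0.032). This call was lost with a pseudocount of 1 (adjusted p = 0.053), without the filter (0.083), with equal total FPKM (0.0501) and without any 1 of the DRG libraries (0.067 to 0.078). The reference isoform uc008thg.1 was close to 0 in DRG libraries 1 and 2 and had 1389 FPKM in DRG library 3, against 898 and 1774 FPKM in CGN cultures. Its value in library 3 lay between the CGN values, and the difference did not pass (-3.10, SE 1.57, adjusted p = 0.24). Another isoform labelled Tnc_j2, TCONS_00694897, had 635, 1273 and 2197 FPKM in DRG cultures, against 875 and 2085 FPKM in CGN cultures, and overlapped. TCONS_00539699 (Tnc_j1) had 1494, 5821 and 1093 FPKM in DRG cultures, against 511 and 1299 FPKM in CGN cultures, and was the largest part, 45.4%, of the Tnc sum of DRG library 2. The remaining TCONS_00539702 and TCONS_00586843 did not pass (1.09 and 0.99, adjusted p = 0.38 and 0.49).

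The reference isoform of Thbs1, uc008lrq.1, had 4850, 2158 and 3209 FPKM in DRG cultures, against 411 and 570 FPKM in CGN cultures, and was called higher (log2 fold change 2.62, SE 0.46, limma adjusted p = 0.020). Thbs1_j2 (TCONS_00250976) had 3824, 588 and 3250 FPKM in DRG cultures, against 1182 and 3093 FPKM in CGN cultures, with a log2 fold change of 0.03 (SE 0.88, adjusted p = 0.99). It made up 37.7%, 18.1% and 50.3% of the gene in DRG cultures, against 70.9% and 84.4% in CGN cultures. Thbs1_j1 had 1342 and 497 FPKM in DRG libraries 1 and 2 and was close to 0 in DRG library 3, against 65.6 FPKM and a value close to 0 in CGN cultures, and did not pass (2.15, adjusted p = 0.37). When genes were taken as the sum of their reference isoforms alone, 8 of 9 passed: Thbs1 was then higher in DRG cultures (2.62, adjusted p = 0.0045), Tnc turned to -3.10 without passing (adjusted p = 0.13), and Bgn had no reference isoform. The share called over all genes was not computed for this setting, so the count of 8 has none beside it.

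The pattern of Matn2 over the 5 libraries, each gene being centred on its own mean, was close to those of Ret, Rnase4, Timp2 and Slc6a19, with root mean square differences of 0.158, 0.210, 0.222 and 0.227 log2 units. Ret, the receptor tyrosine kinase for GDNF family ligands, had 24114, 19284 and 38337 FPKM in DRG cultures, against 531 and 1112 FPKM in CGN cultures. Among the other matrix genes described here Lum was nearest, at rank 30 with 0.301 log2 units, followed by Spp1 at rank 91 with 0.421, whereas Thbs1 (rank 3793) and Tnc (rank 5587) were farthest. Ret, Rnase4, Timp2 and Slc6a19 were thus nearer to Matn2 than any of these.

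Other genes of the matrix were taken from lists by function. The counts of these lists are to be read beside the 28.4% called higher and 9.22% called lower over all genes tested. The lists were written with earlier results of these data known, so their counts describe the lists and are not independent support. Of 13 further small leucine-rich proteoglycans 4 were in the table and 3 were tested, with 1 higher, 1 lower and 1 not passed. Prelp, a collagen-binding member, had 2139, 685 and 1047 FPKM in DRG cultures, against 12.7 and 45.0 FPKM in CGN cultures (log2 fold change 3.97, SE 0.65, limma adjusted p = 0.0016). Nyx, best known from the retina, had 16.9, 15.1 and 1.43 FPKM in DRG cultures, against 263 and 227 FPKM in CGN cultures (-2.28, SE 0.53, adjusted p = 0.0093). So within this family the difference was not in 1 direction. The count of 1 higher became 2 without DRG library 2, and Nyx was no longer tested when either CGN library was left out.

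Of 28 further matricellular and related glycoproteins 16 were tested, with 9 higher, 0 lower, 7 not passed and a median log2 fold change of 2.31. The count of 9 fell to 6 with a pseudocount of 1, with equal total FPKM (median 1.05) and without CGN library 1 (median 1.41), and up to 2 were lower under the other scalings. Fstl1, a follistatin-like relative of Sparc, had 65696, 47637 and 64595 FPKM in DRG cultures, against 1575 and 3207 FPKM in CGN cultures (4.67, SE 0.40, adjusted p = 5.7e-05). Spock1, a proteoglycan with a Sparc-like domain, had a log2 fold change of 4.47 (SE 0.39, adjusted p = 6.2e-05), and Mgp, matrix Gla protein, which prevents calcification, one of 3.70 (SE 0.35, adjusted p = 9.7e-05). Thbs2, the closest relative of Thbs1, had 929, 592 and 614 FPKM in DRG cultures, against 106 FPKM and a value close to 0 in CGN cultures (3.08, SE 0.67, adjusted p = 0.0065), a call lost with a pseudocount of 1 and with equal total FPKM (adjusted p = 0.052 in both). Unlike Thbs1, it did not overlap between cultures.

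Of 22 genes of elastic fibres and provisional matrix 19 were tested, with 9 higher, 2 lower and 8 not passed. The genes named here that rose encode an elastic fibre glycoprotein (Efemp1, log2 fold change 6.27, SE 0.44, limma adjusted p = 2.8e-05), fibulin 2 (Fbln2, 5.92, SE 0.51, adjusted p = 6.2e-05), extracellular matrix protein 1 (Ecm1, 5.60, SE 0.47, adjusted p = 5.3e-05) and lysyl oxidase, which cross-links collagen and elastin (Lox, 5.52, SE 0.70, adjusted p = 0.00044). Lox had 31006, 4574 and 13622 FPKM in DRG cultures, against 135 and 354 FPKM in CGN cultures, and was lowest in DRG library 2 like most of the genes above. The genes that fell were those of elastin and of a microfibril-associated glycoprotein. Eln had 255, 77.4 and 620 FPKM in DRG cultures, against 1891 and 4560 FPKM in CGN cultures (-3.33, SE 0.74, adjusted p = 0.0071), a call that was lost without CGN library 2 (-2.71, adjusted p = 0.074). Mfap4 was listed at 0 in all DRG libraries, against 8416 and 14429 FPKM in CGN cultures (limma adjusted p = 3.1e-05), and was not tested when a CGN library was left out. The 2 genes called lower thus became 1 without CGN library 1 and 0 without CGN library 2.

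Of 21 receptors that bind proteins of the group 15 were tested, with 6 higher, 1 lower and 8 not passed. Over all genes tested 28.4% were called higher and 9.22% lower. With equal total FPKM 14 receptors were tested, with 5 higher and 2 lower. The median log2 fold change was 1.03 beside 0.59 over all genes (0.32 beside -0.27 with equal total FPKM). Itgb1, the integrin chain shared by most fibronectin receptors, had 49667, 38318 and 47013 FPKM in DRG cultures, against 4031 and 9144 FPKM in CGN cultures (2.87, SE 0.42, adjusted p = 0.00094). Itgb5, a partner in vitronectin and osteopontin receptors, was higher too (2.75, SE 0.39, adjusted p = 0.00073), as were the cell surface heparan sulphate proteoglycans Sdc1 (3.85, SE 0.66, adjusted p = 0.0020) and Sdc4. Sdc4 had 1019, 459 and 533 FPKM in DRG cultures, against 29.1 and 41.5 FPKM in CGN cultures (adjusted p = 0.0046). Ptprz1, a receptor phosphatase that binds tenascins in the central nervous system, had 191, 135 and 323 FPKM in DRG cultures, against 549 and 1172 FPKM in CGN cultures. Its difference passed only narrowly (-1.75, SE 0.62, adjusted p = 0.0499). That call was lost without DRG library 1, DRG library 2 or either CGN library, with adjusted p-values of 0.066, 0.095, 0.084 and 0.26 for DRG library 1, DRG library 2, CGN library 1 and CGN library 2 left out. It was lost as well with pseudocounts of 1 (0.081) and 10 (0.066) and without the filter (0.069).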

How the data were processed

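The FPKM values were those the authors deposited for each library: per the labels, poly(A) RNA reads were aligned to mm9 with TopHat and transcripts were assembled and estimated with Cufflinks and Cuffdiff. By the study's methods these FPKM were upper-quartile normalized. FPKM pooled over the libraries of a cell type and columns holding the authors' fold changes, p-values and calls were not used. Gene sums and isoforms were tested as log2(FPKM + 50) by limma 3.58.1, run in R 4.3.3 with an empirical Bayes trend, where at least 2 libraries reached 50 FPKM, with Benjamini-Hochberg adjustment. The labels give only the numbers of the replicates. By the study's methods they are biological replicates, each DRG culture from a pair of mice and each CGN culture from a single mouse. The p-values thus measure the spread between libraries of separate cultures. The Matn2 share was compared by exact permutation over 10 splits. Tables, sequence windows and figures used Python 3.11.15, pandas 2.3.3, numpy 2.4.6 and matplotlib 3.10.9. Gene positions are those of the NCBIM37 (mm9) annotation. The fit was tested on simulated data with 200 changed features. Among 13275 genes it called 4.48% of those changed 1 log2 unit, 47.8% at 2 units, 95.5% at 4 units and 0.0782% of those unchanged. Among 33587 isoforms it called 0%, 0% and 47.0% at the same sizes. In the data far more features were called, 3775 genes being higher and 1224 lower. The Benjamini-Hochberg adjustment is stricter where fewer features change, so these percentages do not give the recovery of the tests reported here.

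The genes described and the lists were chosen with earlier results of these data known. All 10 genes were named, with the isoforms that reached 50 FPKM. Of each further list, up to 4 genes in each direction were named that had the largest log2 fold change among those past the threshold without overlap between cultures, and of the 5 genes most like Matn2 by root mean square difference 4 were named. Some values that met these rules are not reported here. Cell markers were named where the text turns on them. Results were recomputed with a pseudocount of 1 or 10, without a filter or with one of 100 FPKM, after quantile normalization, median ratio scaling or scaling to equal total FPKM, without the trend, with the replicate number as a block, from reference isoforms alone, with a pseudocount of 50 in the isoform shares, and without each library in turn.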

Additional observations from a re-analysis of the deposited data

How the results depend on the processing

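The log2 fold changes of Fn1, Dcn, Bgn, Lum, Postn, Sparc, Spp1 and Matn2 passed under every alternative in which they were tested, and the number of genes called higher stayed at 8 or 9, with 0 lower. Tnc turned to -3.10 with reference isoforms alone. For Thbs1_j2 (TCONS_00250976), which never passed, the log2 fold change became -0.71 with quantile normalization, -0.89 with equal total FPKM, -0.67 with median ratio scaling, -0.32 with the replicate block, and ranged between -0.64 and 0.86 with libraries left out. For Tnc_j2 (TCONS_00694897) it ranged between -0.75 and 0.46 with libraries left out, and was 0.30 without DRG library 1. With libraries left out in turn, 8 to 18 isoforms were called higher and 0 to 1 lower, the Matn2_j1 share differed by 17.8 to 42.3 percentage points, and over all genes 2233 to 4535 were called higher and 359 to 1330 lower. Genes past 50 FPKM in CGN cultures alone were not tested where a CGN library was left out. The numbers of genes called lower over all genes were 2809, 3502 and 2807 with quantile normalization, equal total FPKM and median ratio scaling, and 2287 were called higher with equal total FPKM.

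Libraries with the same replicate number did not deviate together (correlations of -0.02 and 0.01 for numbers 1 and 2). With only 2 CGN libraries, however, their deviations mirror each other. These correlations therefore cannot show whether the numbers pair the samples. With the replicate block 2444 genes were called higher over all genes, and of the isoforms 19 were called higher and 1, uc008thg.1 of Tnc, lower. The causes of these changes were not tested.

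With 3 and 2 libraries and no read counts, small differences may be missed. The simulated recovery of 4.48% at a log2 fold of 1 cannot show how many. It came from data with far fewer changed features than were called here, where the Benjamini-Hochberg adjustment is stricter.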
